A study of Mus musculus with 8 samples.

Results

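The genes described here encode protein phosphatase 1 (PP1), a serine/threonine phosphatase, and the proteins named as its regulatory subunits. They were every gene of the count table whose symbol starts with Ppp1r, plus the 3 catalytic genes Ppp1ca, Ppp1cb and Ppp1cc, and came to 51 of the 46983 genes listed. Expression was measured by RNA sequencing of tail epidermis from 8 mice, 1 library per mouse, in a study of NIPP1, the nuclear PP1 subunit encoded by Ppp1r8. All mice were 8 weeks old, came from a line that combines the Cre transgene Tg(KRT14-cre)1Amc/J with the Ppp1r8 alleles Ppp1r8tm1Ave and Ppp1r8tm1.1Itl, and carried K14-Cre/+, whose keratin 14 promoter is active in basal keratinocytes. The 4 CTR mice had the genotype K14-Cre/+ Ppp1r8 fl/+, so controls were heterozygous for the floxed allele and not wild type. The 4 SKO mice had the genotype K14-Cre/+ Ppp1r8 fl/-, so their other cells (leukocytes, melanocytes, vessels) kept 1 floxed allele beside the null one.

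PP1 catalytic subunits hardly occur free in cells. Each binds a regulatory subunit, often through a short RVxF-type docking motif, and the partner decides where the enzyme sits, which substrates it meets and whether it is active. Some partners are inhibitors, others bring PP1 to myosin, actin, glycogen, chromatin or the translation factor eIF2alpha. In the epidermis, myosin phosphatase is known for its part in keratinocyte tension and shape, and ASPP-family partners for their binding of p53 and p63.

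Levels are given as normalised CPM, counts scaled to library size and composition, when 1 gene is followed across libraries, and as CPM per kilobase of exon when genes are compared with each other. Group values are means ± SD over 4 mice. Differences were tested with edgeR's quasi-likelihood test on the counts, and a gene was called when its Benjamini-Hochberg adjusted p over all 15638 tested genes was under 0.05. Log2 fold changes are SKO minus CTR, so positive values mean a higher level in SKO. The p-values measure the spread between mice. In bulk tissue, fewer cells of a type and less RNA per cell cannot be told apart.

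Library totals lay between 16696212 and 21571935 counts, so that 3 counts corresponded to 0.139 to 0.180 CPM. The tissue label held against its markers, with the summed level of 8 keratinocyte genes at 31137 to 35931 CPM in CTR and 55930 to 72789 CPM in SKO. Krt10 (15650 CPM in CTR, 31131 in SKO) and Krt1 (2488 in CTR, 18366 in SKO) made up most of the rise in that sum. In all, 3 of the 8 were higher (Krt10, Krt1 and Lor) and 1 was lower (Itga6). Krt5, Krt14, Trp63 and Dsg3 were not called. None of the listed markers of other cell types was at 0 counts throughout. The 10 leukocyte markers summed to 52.4 to 83.3 CPM in CTR and 100.2 to 137.5 in SKO, with 6 of 8 tested markers higher. The 9 hair shaft genes summed to 3009 to 5283 CPM in CTR and 156.5 to 1272 in SKO, with 8 of 9 lower. Sebaceous gland markers (1716 to 2154 CPM in CTR, 2238 to 2859 in SKO, 4 of 8 higher) did not overlap either. Nor did the sum of adipocyte markers (14.8 to 25.2 CPM in CTR, 4.40 to 10.2 in SKO), with 1 of 2 tested markers higher and 1 lower. That sum followed Fabp4 (19.3 CPM in CTR, 2.86 in SKO), while Cidec was higher in SKO (1.11 CPM in CTR, 2.78 in SKO). Melanocyte markers overlapped in their sum, with 4 of 6 higher and 1 lower. The labels give no sex. Xist, the X-inactivation RNA of female cells, was at 647 to 994 CPM in CTR and 330 to 574 CPM in SKO, without overlap, so every library held it. The part of these differences in the results that follow was not tested. A model with Xist as a covariate was also fitted, but it cannot separate Xist level from genotype.

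Of the 51 PP1 genes, 35 had enough counts to be tested. The myosin phosphatase regulators Ppp1r12b (log2 fold change 0.64) and Ppp1r14a (0.79), the inhibitor Ppp1r1c (2.24) and the actin scaffold Ppp1r9b (0.27) rose. The ASPP-family gene Ppp1r13b (-0.61), the eIF2alpha phosphatase subunit Ppp1r15a (-0.42), Ppp1r36 (-0.83) and the catalytic gene Ppp1cc (-0.40) fell. In all, 4 members rose and 4 fell, 22.9% of those tested, against 23.7% of all tested genes. The share of all genes called higher was 11.5% and the share called lower 12.2%. In this fit the members' share was close to the background. The count includes Ppp1r1c, which passed the filter on low counts only through SKO, the group in which it is higher. With a filter of at least 1 CPM in 4 libraries Ppp1r1c was not tested. The share of members called was then 24.2%, against 24.4% of all tested genes. To pass that filter Ppp1r14a needed SKO libraries and Ppp1r36 CTR libraries, in each case the group with the higher level. The 2 groups of libraries did not overlap for 12 members, 34.3% of those tested, against 26.2% of all tested genes. SKO lay above CTR for 6 of them and below for 6, against 12.8% and 13.3% of all tested genes. Those above include Ppp1r1c and Ppp1r3f, for which only the SKO libraries met the filter on low counts. Whether these shares differ was not tested. The median log2 fold change of tested members was -0.06, and their median size of change was 0.27, against 0.22 for all tested genes. An unadjusted p under 0.05 in edgeR was found for 45.7% of tested members and for 37.6% of all tested genes.

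The count of called members moved with the setting. With TMM factors 4 were higher and 4 lower. Library totals alone gave 6 higher and 4 lower, 28.6% of tested members against 23.6% of all tested genes. Upper-quartile factors gave 7 higher and 4 lower, 31.4% against 24.1%. DESeq2, which has its own scaling, model and filter, also gave 7 and 4, 27.5% against 23.8%, with Ppp1r26 in place of Ppp1r36 among the lower ones. Without SKO 3 there were 7 higher and 6 lower, 36.1% against 27.6%, and without SKO 2 there were 3 higher and 2 lower, 14.3% against 17.8%. After Xist was added to the model as a covariate, 60 of all 15638 genes (0.384%) and 1 member, Ppp1r12b (log2 fold change 1.03, adjusted p = 0.0436), were called. Because Xist did not overlap between the groups, that fit cannot tell its level apart from genotype and is not an adjustment for sex.

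**Figure D1:**
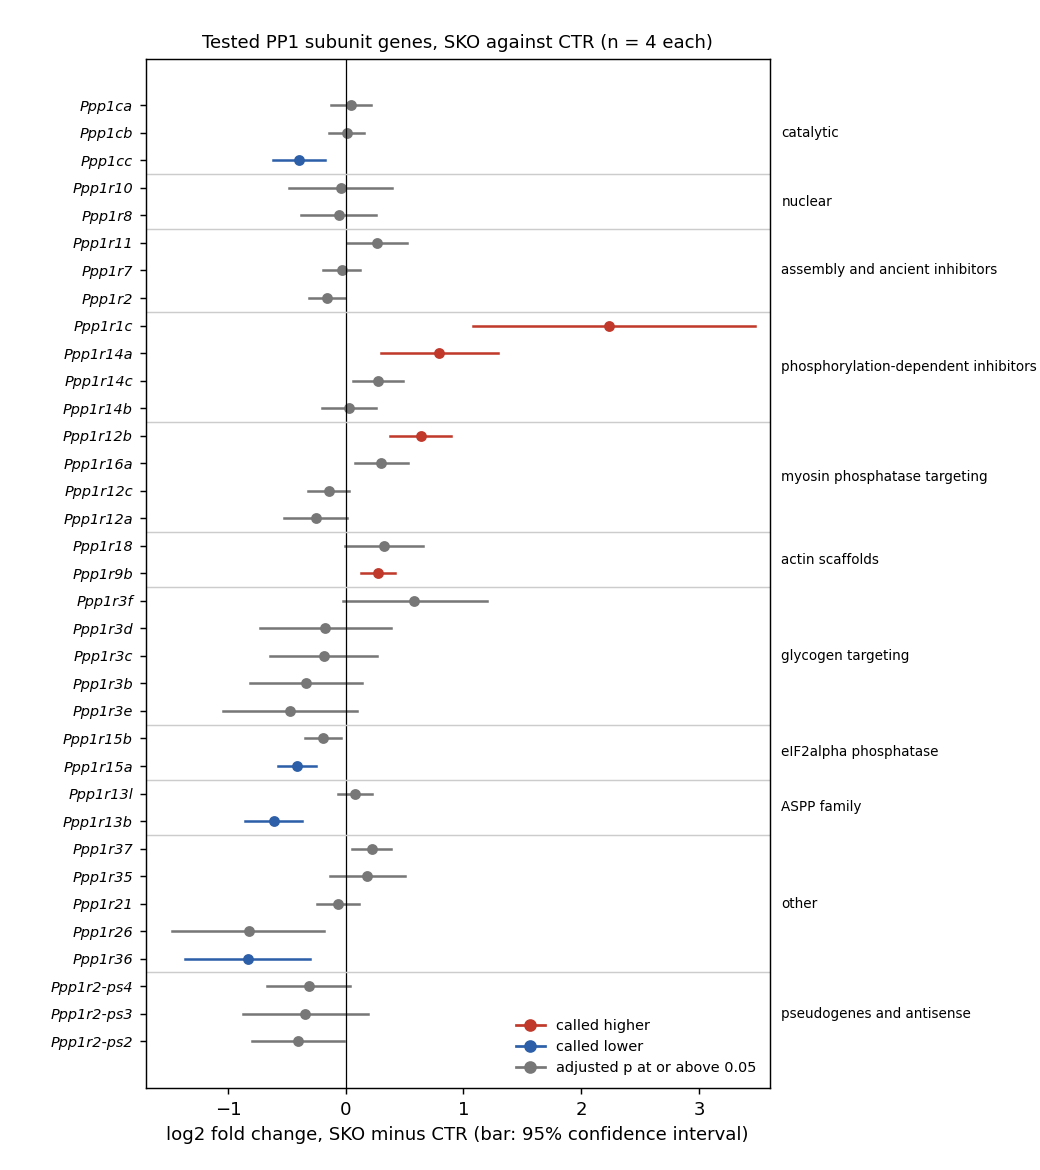
Log2 fold change of each of the 35 tested PP1 genes (points; x axis, SKO minus CTR, n = 4 mice each) with its 95% confidence interval (bars), grouped by role. The 4 red genes were called higher and the 4 blue ones lower, and the interval of Ppp1r1c is the widest, from 1.08 to 3.48.

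The targeted gene, Ppp1r8 (chromosome 4, 132826929 to 132843169, GRCm38), was measured at 40.4, 34.7, 41.6 and 35.0 CPM in CTR 1 to 4 and 35.4, 28.4, 34.3 and 47.4 CPM in SKO 1 to 4. The highest and the lowest library were both SKO, and the groups overlapped. Its gene-level count did not differ beyond the spread between mice (log2 fold change -0.06, SE 0.14, 95% interval -0.38 to 0.26, adjusted p = 0.789). The deposited counts are per gene and do not separate the floxed part, so they do not check the genotype labels.

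Ppp1cc, the gene of the PP1 gamma catalytic subunit, has a near relation in the annotation that bears on its value, so both sequences are shown first. Ppp1ccb is annotated in GENCODE M21 as a transcribed processed pseudogene, a copy that lacks the introns between the coding exons of Ppp1cc and lies elsewhere in the genome. The 7 coding exons of transcript Ppp1cc-202 on chromosome 5 and the single exon of transcript Ppp1ccb-201 on chromosome 7 were identical over all 972 coding bases, with 0 differences. The opening 120 coding bases of each (GRCm38, both on the plus strand) illustrate this, with capitals on the bases either side of the splice junction of Ppp1cc, coding bases 55 and 56 counted from the start codon. In Ppp1cc the stretch is split between chr5:122158561-122158615 and chr5:122168175-122168239, while in Ppp1ccb it runs without a break at chr7:119740128-119740247.
Ppp1cc: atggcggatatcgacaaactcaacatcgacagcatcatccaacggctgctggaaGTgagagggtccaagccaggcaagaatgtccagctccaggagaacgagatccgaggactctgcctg
Ppp1ccb: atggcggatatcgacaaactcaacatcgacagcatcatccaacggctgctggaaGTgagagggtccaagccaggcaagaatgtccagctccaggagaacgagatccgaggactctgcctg

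Per length, Ppp1ca was the most abundant of all PP1 genes, at 134 ± 8.40 CPM per kilobase in CTR and 138 ± 8.12 in SKO, counted over the union of its exons. It encodes PP1 alpha. Ppp1cb, which encodes PP1 beta (also called delta), the form that myosin phosphatase uses, was at 40.2 ± 0.897 CPM per kilobase in CTR and 40.4 ± 1.59 in SKO. Ppp1cc was far lower, at 3.37 ± 0.122 CPM per kilobase in CTR and 2.55 ± 0.155 in SKO. The shares of the 3 genes in their summed level per length were 75.4% ± 1.21, 22.7% ± 1.14 and 1.90% ± 0.124 in CTR, and 76.3% ± 1.47, 22.3% ± 1.39 and 1.41% ± 0.109 in SKO. With the length of the transcript with the longest coding sequence in place of all exons, the share of Ppp1cc was 2.58% ± 0.166 in CTR and 1.92% ± 0.146 in SKO. The order of the 3 genes was the same by both lengths. Both shares leave out the reads counted to Ppp1ccb, 24.2 ± 1.60 CPM in CTR against 11.5 ± 0.419 CPM for Ppp1cc itself, and would be higher for Ppp1cc with any of these added.

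Ppp1ca (chromosome 19, 4192065 to 4195420) was at 332, 315, 339 and 366 CPM in CTR 1 to 4 and 374, 346, 324 and 349 CPM in SKO 1 to 4. The ranges overlapped and no difference was detected (log2 fold change 0.04, SE 0.08, 95% interval -0.13 to 0.21, adjusted p = 0.712). Ppp1cb (chromosome 5, 32458843 to 32517433) was at 426, 442, 449 and 438 CPM in CTR 1 to 4 and 442, 417, 458 and 446 CPM in SKO 1 to 4. Its 8 libraries were the most alike of the 3 catalytic genes, and its interval allowed a change of at most about 0.15 in either direction on the log2 scale (log2 fold change 0.01, SE 0.07, 95% interval -0.14 to 0.15, adjusted p = 0.951). Ppp1ca shares 225 exon bases (8.93%) with Rad9a on the opposite strand, and Ppp1cb shares 17.5% of its exon bases with Gm43312, which had a mean of 0.5 counts in CTR and 1.5 in SKO.

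Ppp1cc (chromosome 5, 122158278 to 122175273) fell. It was at 12.1, 11.4, 11.1 and 11.5 CPM in CTR 1 to 4 and 9.07, 8.39, 9.31 and 8.21 CPM in SKO 1 to 4, that is 11.5 ± 0.419 CPM in CTR and 8.75 ± 0.530 CPM in SKO. Every SKO library lay under every CTR library, and the decrease was 1.32-fold (log2 fold change -0.40, SE 0.10, 95% interval -0.62 to -0.18, adjusted p = 0.0166). Without SKO 2 the adjusted p was 0.0504 (log2 fold change -0.37). Ppp1ccb (chromosome 7, 119739926 to 119742226) was at 25.9, 23.3, 22.5 and 25.1 CPM in CTR 1 to 4 and 19.1, 18.5, 20.9 and 18.4 CPM in SKO 1 to 4, a higher count than that of Ppp1cc in every library, and was also called lower (log2 fold change -0.33, SE 0.08, adjusted p = 0.0188). That call was lost without CTR 1, SKO 2 or SKO 4 (adjusted p 0.0507 to 0.0604). How the authors' counting treated reads with several matches is not given in the sources used here. All 898 windows of 75 bases, the read length, in the Ppp1cc coding sequence also occur in Ppp1ccb, as do 36.7% of the windows of all Ppp1cc transcripts. The split of reads between the genes is therefore uncertain. Summed, a setting added after both values had been seen, they came to 35.7 ± 1.98 CPM in CTR and 28.0 ± 1.65 in SKO (log2 fold change -0.35, SE 0.08, 95% interval -0.52 to -0.18, adjusted p = 0.00991 in edgeR).

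**Figure D2:**
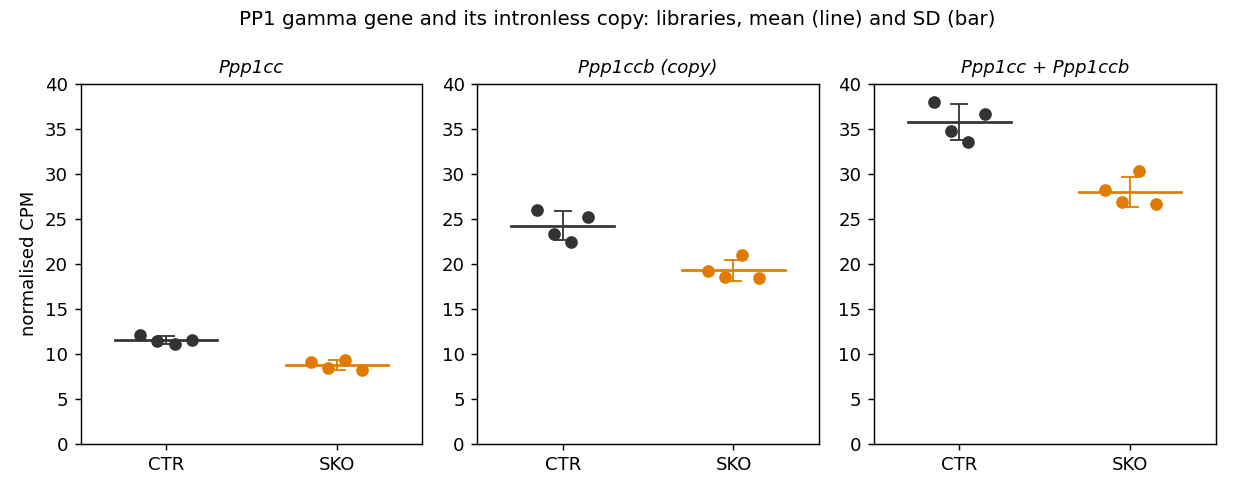
Normalised CPM (y axis, from 0) of Ppp1cc, of its processed copy Ppp1ccb and of their sum in each of 4 CTR and 4 SKO libraries (points), with group mean (line) and SD (bar). In each panel all SKO points lie under all CTR points, with the sum at 28.0 in SKO against 35.7 in CTR.

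Among the nuclear partners, neither tested gene was called in edgeR or DESeq2 or had an unadjusted p under 0.05. Beside Ppp1r8 these were Ppp1r10, which encodes PNUTS, a subunit that holds PP1 at chromatin and at sites of transcription. It was at 39.2, 55.7, 34.1 and 26.0 CPM in CTR 1 to 4 and 32.5, 36.7, 43.4 and 37.9 CPM in SKO 1 to 4, with the widest spread in CTR (log2 fold change -0.04, SE 0.20, 95% interval -0.48 to 0.39, adjusted p = 0.893). Of 6 genes for proteins known to bind NIPP1 (Cdc5l, Sf3b1, Ezh2, Eed, Suz12 and Melk), Cdc5l rose (log2 fold change 0.36, SE 0.10, adjusted p = 0.0254) and Ezh2 fell (log2 fold change -0.28, SE 0.08, adjusted p = 0.0333), with a list median of 0.15 and 33.3% called against 23.7% of all tested genes. Cdc5l encodes a pre-mRNA splicing factor and Ezh2 the methyltransferase of Polycomb complex PRC2. Leaving out CTR 2, CTR 3, CTR 4 or SKO 4 ended the call of Cdc5l. Leaving out any 1 library other than CTR 1 or SKO 4 ended that of Ezh2, as did upper-quartile factors and no filter on low counts.

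The conserved assembly factors and inhibitors Ppp1r2, Ppp1r7 and Ppp1r11 encode inhibitor-2, SDS22 and inhibitor-3, which accompany newly made catalytic subunits. An unadjusted p under 0.05 in edgeR, as for 37.6% of all tested genes, was found for 2 of these 3. All 3 were tested, and 0 were called in edgeR or in DESeq2. Ppp1r2 was the most abundant of them per length and was at 92.1, 98.3, 105 and 104 CPM in CTR 1 to 4 and 83.2, 92.8, 90.6 and 91.7 CPM in SKO 1 to 4. SKO 2 lay just above CTR 1, and the groups otherwise did not cross (log2 fold change -0.16, SE 0.07, 95% interval -0.31 to -0.0041, adjusted p = 0.124). Ppp1r11 was at 23.3 ± 3.55 CPM in CTR and 28.0 ± 2.15 CPM in SKO (log2 fold change 0.26, adjusted p = 0.121), and Ppp1r7 at 42.0 ± 1.90 CPM in CTR and 41.0 ± 1.75 CPM in SKO (log2 fold change -0.04, adjusted p = 0.745). Ppp1r2 has processed pseudogenes that share short stretches with it. With their counts added to its own, its log2 fold change was -0.17 (adjusted p = 0.0918 in edgeR).

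Of 7 inhibitors that work only when phosphorylated, 4 were tested, 2 rose and 0 fell, against 11.5% of all tested genes called higher and 12.2% lower. Both that rose had low counts, and Ppp1r1c passed the filter on low counts only through SKO. Ppp1r14a (chromosome 7, 29289308 to 29293801) encodes CPI-17, which blocks myosin phosphatase once a kinase has phosphorylated it and is best known from smooth muscle. It was at 1.18, 1.20, 1.05 and 0.847 CPM in CTR 1 to 4 and 1.99, 2.12, 1.35 and 1.96 CPM in SKO 1 to 4. The lowest SKO library, SKO 3, was still above all CTR libraries, and the means were 1.07 ± 0.163 CPM in CTR and 1.86 ± 0.344 CPM in SKO (log2 fold change 0.79, SE 0.22, 95% interval 0.30 to 1.29, adjusted p = 0.0278). The value rests on 83 counts in the 4 CTR libraries and 144 in the 4 SKO libraries, and leaving out any 1 library other than CTR 2 or SKO 3 ended the call (adjusted p 0.0513 to 0.0752).

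Ppp1r1c (chromosome 2, 79707780 to 79818496) encodes a small relative of inhibitor-1 and DARPP-32, inhibitors that protein kinase A switches on. It was at 0.410, 0.144, 0.0619 and 0.0471 CPM in CTR 1 to 4 and 0.629, 0.657, 0.701 and 1.27 CPM in SKO 1 to 4. All SKO libraries lay above all CTR libraries (log2 fold change 2.24, SE 0.54, 95% interval 1.08 to 3.48, adjusted p = 0.0139). The counts behind it were 13 in CTR and 63 in SKO, 3 of the 4 CTR libraries held at most 3 counts each, and the log2 fold change was 3.15 without CTR 1. It passed the filter on low counts only through SKO, the group in which it is higher, so its place among the tested members depends on the filter. With no filter on low counts it was still called higher, and with a filter of at least 1 CPM in 4 libraries it was not tested. Its closest relatives Ppp1r1a (1 count in each group) and Ppp1r1b (10 counts in CTR, 8 in SKO) were too low to test.

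The inhibitors with the most RNA did not pass the threshold. Ppp1r14c, which encodes KEPI, an inhibitor that protein kinase C activates, was among the 4 most abundant PP1 genes per length, at 40.5 CPM per kilobase in CTR and 48.9 in SKO. It was at 99.4, 105, 112 and 107 CPM in CTR 1 to 4 and 147, 138, 117 and 110.4 CPM in SKO 1 to 4. SKO 1 and SKO 2 were above all CTR libraries, SKO 3 was just above them, and SKO 4 lay within their range (log2 fold change 0.27, SE 0.10, 95% interval 0.06 to 0.49, adjusted p = 0.0635). Its gene shares 29.2% of its exon bases with Gm26752 on the opposite strand. Ppp1r14b, which encodes PHI-1, was at 43.5 ± 4.07 CPM in CTR and 44.3 ± 5.31 CPM in SKO (log2 fold change 0.03, adjusted p = 0.873), and 19.6% of its 75-base windows also occur in the processed pseudogene Gm7332. Ppp1r14d (17 counts in CTR, 26 in SKO) was not tested.

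The myosin phosphatase targeting group brings PP1 beta to myosin light chain. Of its 5 members 4 were tested, 1 rose and 0 fell, 25% called against 23.7% of all tested genes. Ppp1r12b (chromosome 1, 134754658 to 134955942), which encodes MYPT2, the form known from heart and skeletal muscle, was at 21.6, 26.6, 18.8 and 21.6 CPM in CTR 1 to 4 and 32.2, 34.7, 39.6 and 31.2 CPM in SKO 1 to 4. The lowest SKO library exceeded the highest CTR library, and the increase was 1.56-fold (22.1 ± 3.23 CPM in CTR and 34.5 ± 3.74 CPM in SKO, log2 fold change 0.64, SE 0.12, 95% interval 0.38 to 0.90, adjusted p = 0.00471). Its call held in all 17 alternatives run, with adjusted p-values from 2.29e-05 to 0.0436. Per length it remained the lowest of the tested group, at 1.48 CPM per kilobase in CTR and 2.30 in SKO.

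Ppp1r12a, which encodes MYPT1, the form most widely expressed, was at 56.3 ± 6.11 CPM in CTR and 47.2 ± 7.60 CPM in SKO (log2 fold change -0.26, SE 0.12, 95% interval -0.52 to 0.01, adjusted p = 0.152), and was called lower without SKO 3. Ppp1r12c, the gene of the related subunit MBS85, was at 40.8, 38.5, 38.5 and 40.3 CPM in CTR 1 to 4 and 37.5, 37.5, 31.4 and 36.7 CPM in SKO 1 to 4. All SKO libraries were under all CTR libraries, yet the difference was small and did not pass the test (log2 fold change -0.14, adjusted p = 0.207). Ppp1r16a, which encodes the membrane-bound relative MYPT3, was the most abundant of the group per length and was at 35.7, 31.6, 38.0 and 36.6 CPM in CTR 1 to 4 and 48.2, 45.2, 36.5 and 45.2 CPM in SKO 1 to 4. Of the SKO libraries, 3 were above all CTR libraries and SKO 3 lay among them, and the adjusted p was just over the threshold (log2 fold change 0.30, SE 0.10, 95% interval 0.08 to 0.53, adjusted p = 0.051). Ppp1r16b (32 counts in CTR, 50 in SKO) was not tested.

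Ppp1r12b and Ppp1r14a are known as muscle genes, so muscle markers are given beside them. The 7 smooth muscle markers summed to 85.2 to 144.8 CPM in CTR and 75.0 to 127.4 in SKO, and 0 of 3 tested markers were called in edgeR or had an unadjusted p under 0.05. The 10 skeletal muscle markers summed to 4.10 to 5.38 CPM in CTR and 3.81 to 5.82 in SKO, again with 0 of 3 called, 1 of them with an unadjusted p under 0.05. Both sums overlapped between the groups. Smtn, which is not specific to muscle, made up most of the smooth muscle sum. The contractile markers stood apart in SKO 4, with Myh11 at 16.0 CPM against 0.0524 to 0.250 in the other SKO libraries and Acta2 at 31.9 CPM against at most 4.82. They were also raised in CTR 2, with Myh11 at 4.14 CPM and Acta2 at 17.4 CPM. Without SKO 4 the log2 fold changes were 0.68 for Ppp1r12b (adjusted p = 0.00824) and 0.77 for Ppp1r14a (adjusted p = 0.0655), and without CTR 2 they were 0.74 (adjusted p = 0.00401) and 0.85 (adjusted p = 0.0496).

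The actin scaffold Ppp1r9b (chromosome 11, 94991035 to 95006899) encodes spinophilin, which ties PP1 to actin filaments and is best known from dendritic spines. It was at 104, 108, 109 and 98.6 CPM in CTR 1 to 4 and 129, 129, 129.9 and 119 CPM in SKO 1 to 4. The groups were separate, and the rise was small (105 ± 4.64 CPM in CTR and 127 ± 5.26 CPM in SKO, 1.21-fold, log2 fold change 0.27, SE 0.06, 95% interval 0.13 to 0.42, adjusted p = 0.0131). Ppp1r18, which encodes phostensin, an actin-binding partner found in leukocytes, was at 23.2, 24.8, 20.9 and 18.6 CPM in CTR 1 to 4 and 35.0, 27.9, 25.3 and 21.5 CPM in SKO 1 to 4, with overlapping groups (log2 fold change 0.33, adjusted p = 0.136). Leukocyte markers moved as stated above, and their part in the value of Ppp1r18 was not tested. Ppp1r9a, the neuronal relative of spinophilin, had 20 counts in CTR and 9 in SKO and was not tested.

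**Figure D3:**
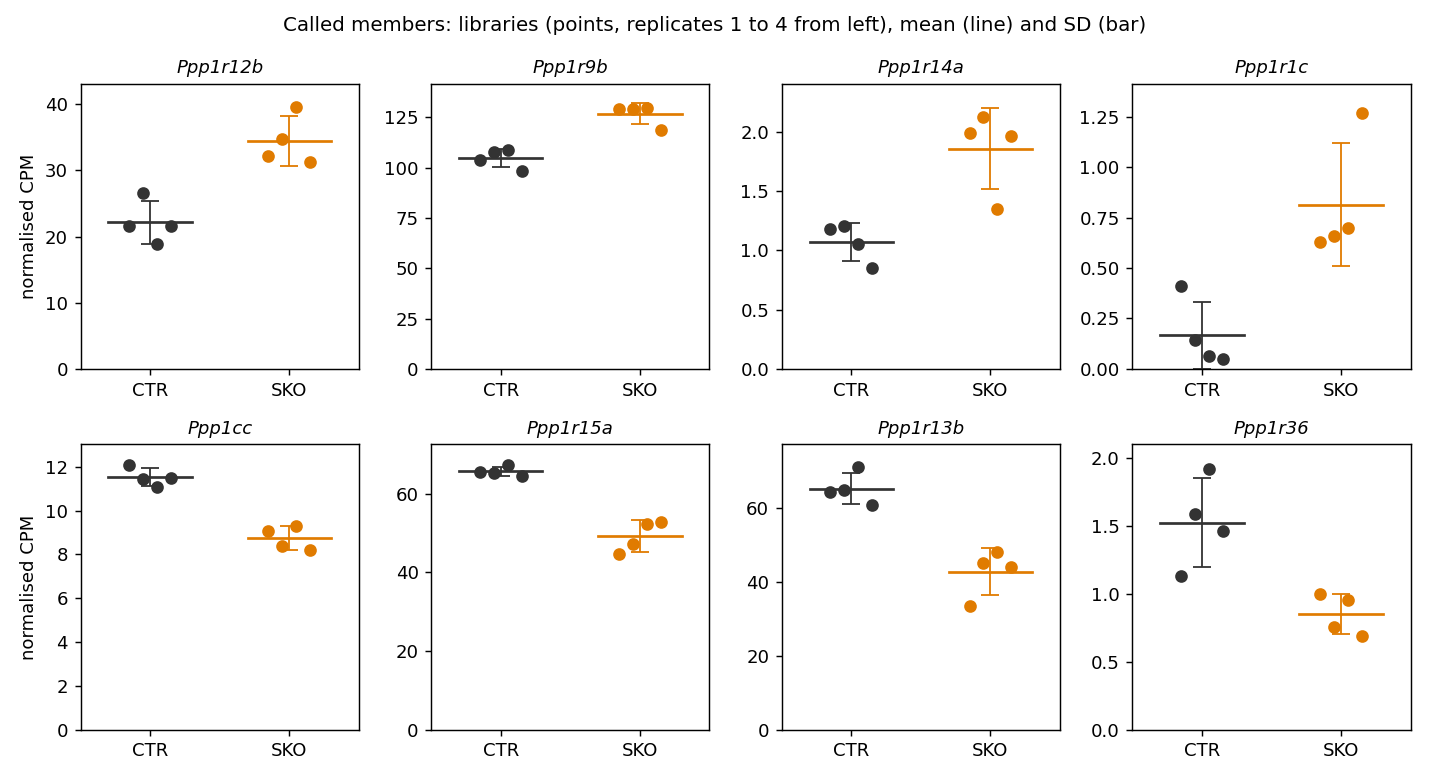
Normalised CPM (y axes, each from 0) of the 8 called PP1 genes in 4 CTR and 4 SKO libraries (points, replicates in order from the left), with group mean (line) and SD (bar). In each panel the groups do not overlap, and the top row holds the 4 genes that were higher in SKO.

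The glycogen-targeting subunits, which bring PP1 to glycogen particles where it activates glycogen synthase and inactivates phosphorylase, gave 0 calls in edgeR and in DESeq2. Of 7, 5 were tested, 0 had an unadjusted p under 0.05, 4 had a log2 fold change under 0, and the median was -0.19. Ppp1r3b, the gene of the liver-type subunit, was the most abundant per length and was at 18.4, 34.0, 24.1 and 19.0 CPM in CTR 1 to 4 and 20.9, 20.1, 21.6 and 13.0 CPM in SKO 1 to 4. CTR 2 was the highest and SKO 4 the lowest, and the other libraries overlapped (log2 fold change -0.34, SE 0.21, 95% interval -0.81 to 0.14, adjusted p = 0.281). The others had log2 fold changes of -0.47 for Ppp1r3e, -0.19 for Ppp1r3c, -0.17 for Ppp1r3d and 0.58 for Ppp1r3f, with adjusted p-values of 0.203, 0.539, 0.644 and 0.145. Without SKO 4, Ppp1r3e was called lower. All SKO libraries of Ppp1r3f were above all CTR libraries, at 0.533 ± 0.143 CPM in CTR and 0.795 ± 0.135 CPM in SKO, but 46.9% of its exon bases belong to Gm36995 as well. Its values rest on 41 counts in CTR and 62 in SKO. The CTR libraries alone did not meet the filter on low counts, while the SKO libraries, the higher group, did. Ppp1r3a, the muscle form, had 1 count in each group, and Ppp1r3g had 6 counts in CTR and 0 in SKO.

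Among 16 genes of glycogen synthesis and breakdown, all tested, 2 rose and 2 fell, 25% against 23.7% of all tested genes, with a median of -0.21. Phkg2, the catalytic subunit of phosphorylase kinase, rose (log2 fold change 0.74, SE 0.08, adjusted p = 0.000407), and so did Ugp2, which makes UDP-glucose (log2 fold change 0.24, SE 0.06, adjusted p = 0.0243). Pygl, the liver-type glycogen phosphorylase, fell (log2 fold change -0.34, SE 0.09, adjusted p = 0.0241), as did Phka1, a regulatory subunit of phosphorylase kinase (log2 fold change -0.55, SE 0.18, adjusted p = 0.0475). The call of Phkg2 held without each library in turn. Leaving out any 1 library other than CTR 1, CTR 2 or SKO 3 ended that of Pygl, and any 1 other than CTR 4 or SKO 3 those of Ugp2 and Phka1. The call of Ugp2 also ended with no filter on low counts, and that of Phka1 with no filter, library totals alone or upper-quartile factors.

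Of the 2 eIF2alpha phosphatase subunits, Ppp1r15a fell and Ppp1r15b did not pass the test. These proteins bring PP1 to the translation factor eIF2alpha and so reverse the block of translation that stress kinases impose. Ppp1r15a (chromosome 7, 45522916 to 45526268) encodes GADD34, the stress-induced form. It was at 65.6, 65.4, 67.3 and 64.5 CPM in CTR 1 to 4 and 44.6, 47.2, 52.3 and 52.8 CPM in SKO 1 to 4. CTR libraries lay within 3 CPM of each other, and the decrease in SKO was 1.33-fold (65.7 ± 1.17 CPM in CTR and 49.2 ± 4.02 CPM in SKO, log2 fold change -0.42, SE 0.07, 95% interval -0.58 to -0.25, adjusted p = 0.00407). Ppp1r15b, which encodes the constitutive form CReP, was at 108, 114, 104 and 103 CPM in CTR 1 to 4 and 90.5, 96.4, 101 and 86.7 CPM in SKO 1 to 4. Its groups did not overlap, as for 26.2% of all tested genes, and with Xist as a covariate its log2 fold change was 0.014 (log2 fold change -0.20, SE 0.07, 95% interval -0.35 to -0.04, adjusted p = 0.0653 without it). Ppp1r15b shares 11.4% of its exon bases with Gm26616 on the opposite strand.

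Ppp1r15a is known as a target of the transcription factor ATF4 and of other factors of the integrated stress response, and its promoter is shown because it is 1 of 2 member genes with a full cyclic AMP response element. The letters TGACGTCA, a palindrome that reads alike on both strands, were searched in RefSeq promoters (250 bases before to 50 after each start, GRCm38.p6). They occurred in 588 of 32851 promoters (1.79%) and in 2 of the 42 promoters of the 34 members that could be matched, those of Ppp1r15a and Ppp1r12c. A match of letters is not a measured binding site. The 250 bases before the start of Ppp1r15a, chr7:45526269-45526518 on the minus strand, are given with the element in capitals, 4 bases before the start.
Ppp1r15a: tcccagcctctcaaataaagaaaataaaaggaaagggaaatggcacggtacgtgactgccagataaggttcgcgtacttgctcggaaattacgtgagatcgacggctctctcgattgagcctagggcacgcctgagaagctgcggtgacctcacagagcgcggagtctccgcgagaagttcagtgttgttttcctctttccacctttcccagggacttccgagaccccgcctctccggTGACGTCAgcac
The AP-1 letters TGANTCA occurred in 7.81% of all promoters and an NF-kB consensus in 0.411%, both searched on both strands, and each in 0 member promoters.

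A list of 14 genes held eIF2alpha kinases, eIF2 subunits, the eIF2B subunit Eif2b5 and factors and targets downstream. All were tested, 2 rose and 3 fell, 35.7% against 23.7% of all tested genes, with a median of 0.00. Chac1, a glutathione-degrading enzyme known as an ATF4 target, fell most (40.9 ± 8.82 CPM in CTR and 12.2 ± 4.03 CPM in SKO, log2 fold change -1.75, SE 0.23, adjusted p = 0.00107). Eif2b5, the catalytic subunit of the eIF2B exchange factor, fell (log2 fold change -0.66, SE 0.08, adjusted p = 0.000806), as did Eif2ak4, the gene of the amino-acid-sensing kinase GCN2 (log2 fold change -0.49, SE 0.15, adjusted p = 0.0353). Atf4 itself rose (log2 fold change 0.36, SE 0.11, adjusted p = 0.0416), as did the kinase gene Eif2ak1 (log2 fold change 0.25, SE 0.06, adjusted p = 0.0155). The downstream genes Trib3, Atf3 and Ddit3 had log2 fold changes of 0.43, 0.97 and 0.31 and were not called (adjusted p = 0.0648, 0.0833 and 0.0838). Asns was at -0.0044 (adjusted p = 0.986). Leaving out CTR 3 or any 1 SKO library ended the call of Eif2ak4, and any 1 library other than CTR 4 or SKO 3 that of Atf4.

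Of the 2 ASPP genes among the members 1 was called, 50% against 23.7% of all tested genes. Whether their changes differ was not tested. Ppp1r13b (chromosome 12, 111828457 to 111908110), which encodes ASPP1, a partner that directs p53 to pro-apoptotic genes, was at 64.4, 65.0, 71.0 and 60.9 CPM in CTR 1 to 4 and 33.5, 45.3, 48.0 and 44.1 CPM in SKO 1 to 4. The highest SKO library was well under the lowest CTR library, SKO 1 was the lowest of all, and the decrease was 1.53-fold (65.3 ± 4.20 CPM in CTR and 42.7 ± 6.34 CPM in SKO, log2 fold change -0.61, SE 0.11, 95% interval -0.85 to -0.37, adjusted p = 0.00418). Ppp1r13l (chromosome 7, 19359749 to 19378533), which encodes the inhibitory member iASPP, a regulator of p63 in stratified epithelium, was the most abundant regulatory subunit per length at 59.7 CPM per kilobase in CTR and 63.0 in SKO. It was at 210.4, 205, 219 and 225 CPM in CTR 1 to 4 and 237, 223, 230.0 and 218 CPM in SKO 1 to 4. The ranges overlapped and no difference was detected (log2 fold change 0.08, SE 0.07, 95% interval -0.07 to 0.23, adjusted p = 0.402). Of the 3 p53-family genes, 0 were called in edgeR, and 1 had an unadjusted p under 0.05.

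Among 9 members with other or less settled roles, 5 were tested and 1 fell, 20% called against 23.7% of all tested genes. Ppp1r36 (chromosome 12, 76417538 to 76439492), known mainly from testis, was at 1.13, 1.59, 1.92 and 1.46 CPM in CTR 1 to 4 and 0.996, 0.758, 0.952 and 0.688 CPM in SKO 1 to 4. All SKO libraries were under all CTR libraries (log2 fold change -0.83, SE 0.24, 95% interval -1.37 to -0.30, adjusted p = 0.0303), on 117 counts in CTR and 66 in SKO. The call ended in DESeq2 (adjusted p = 0.0592), with no filter on low counts (0.0558), and when any 1 of CTR 2, CTR 3, CTR 4, SKO 2 and SKO 4 was left out (0.0531 to 0.0832). Ppp1r37, a PP1 inhibitor gene, was the most abundant of these per length and was at 94.1, 99.1, 110.0 and 112 CPM in CTR 1 to 4 and 122, 124, 114 and 124 CPM in SKO 1 to 4. All SKO libraries were above all CTR libraries by a margin too small for the threshold (log2 fold change 0.22, SE 0.07, 95% interval 0.05 to 0.39, adjusted p = 0.0566). Ppp1r26, whose protein is found in the nucleolus, ranged from 1.69 to 4.33 CPM in CTR and from 1.48 to 2.07 CPM in SKO. SKO libraries were alike and low, while CTR libraries spread from the SKO level upward (log2 fold change -0.83, adjusted p = 0.0643). Ppp1r21 and Ppp1r35 had log2 fold changes of -0.07 and 0.18 (adjusted p = 0.566 and 0.375). Ppp1r17 and Ppp1r27 had 0 counts in all 8 libraries, Ppp1r32 had 18 counts in CTR and 24 in SKO, and Ppp1r42 had 7 and 10.

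The remaining 8 members are pseudogenes of Ppp1r2 and the antisense gene Ppp1r18os. The 3 tested ones were Ppp1r2-ps2, Ppp1r2-ps3 and Ppp1r2-ps4, with log2 fold changes of -0.40, -0.34 and -0.31 and adjusted p-values of 0.123, 0.317 and 0.175, so 0 were called in edgeR or DESeq2 and 1 had an unadjusted p under 0.05. The most abundant, Ppp1r2-ps4, was at 4.71, 5.58, 6.25 and 4.19 CPM in CTR 1 to 4 and 4.51, 4.04, 4.21 and 3.87 CPM in SKO 1 to 4, with overlapping groups. Because they share windows with Ppp1r2, the split of reads between these pseudogenes and Ppp1r2 is uncertain. Ppp1r2-ps6, Ppp1r2-ps7 and Ppp1r2-ps9 had 0 counts, Ppp1r2-ps1 had 1 count, and Ppp1r18os had 12 in CTR and 20 in SKO. Without these 8, 32 of 43 members were tested and 25% of those were called, against 23.7% of all tested genes.

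Members near the threshold were 5: Ppp1r16a, Ppp1r37, Ppp1r14c, Ppp1r26 and Ppp1r15b had adjusted p-values from 0.0510 to 0.0653. Of the 17 alternatives run, Ppp1r16a was called in 6, Ppp1r37 in 5, Ppp1r14c in 4, Ppp1r26 in 2 and Ppp1r15b in 1. The single libraries whose omission gave a call were SKO 3 for Ppp1r16a and Ppp1r15b, SKO 3 or CTR 4 for Ppp1r37, SKO 3 or SKO 4 for Ppp1r14c, and CTR 1 for Ppp1r26. The 16 members that were not tested had at most 82 counts over all libraries, and 5 of them had 0.

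**Figure D4:**
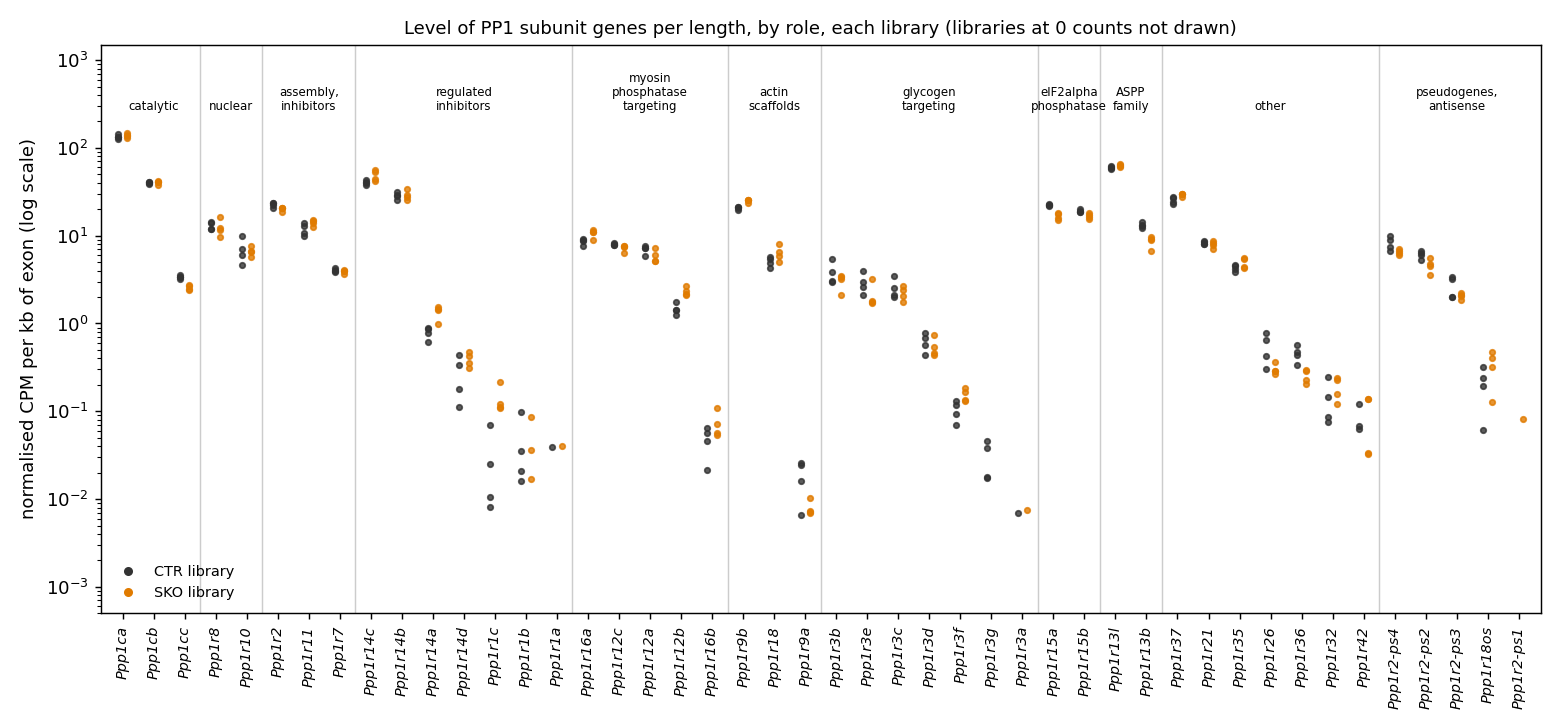
Level of each PP1 gene with at least 1 count, as normalised CPM per kilobase of exon (y axis, log scale), in 4 CTR (black) and 4 SKO (orange) libraries, grouped by role. Ppp1ca stands highest at 134 in CTR, the genes span several orders of magnitude, and libraries at 0 counts are not drawn.

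The members' levels per length spanned a wide range. 13 members reached 10 CPM per kilobase over all libraries, 17 lay from 1 to under 10, and 21 lay under 1. Ppp1ca was followed by Ppp1r13l, then by Ppp1r14c and Ppp1cb, whose levels were within the spread of each other in CTR, then by Ppp1r14b and Ppp1r37. The called genes stood lower in that order, with Ppp1r9b, Ppp1r15a and Ppp1r13b above 10 CPM per kilobase and the other 5 under it. Between mice of a group, the median coefficient of variation of tested members was 9.43% in CTR and 11.9% in SKO. The members lie on 18 chromosomes, and Ppp1r8 is the member on chromosome 4.

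PP1 partners outside the Ppp1r naming scheme were counted from a separate list of 24 genes found in the table. Of 23 tested, 0 rose and 3 fell, 13.0% called against 23.7% of all tested genes, with a median of -0.05. Rrp1b, whose protein brings PP1 to the nucleolus, was the clearest (34.0 ± 3.33 CPM in CTR and 20.5 ± 0.464 CPM in SKO, log2 fold change -0.73, SE 0.09, adjusted p = 0.000693). Phactr1, an actin- and PP1-binding regulator, fell from low levels (9.77 ± 3.27 CPM in CTR and 3.92 ± 1.74 CPM in SKO, log2 fold change -1.31, SE 0.34, adjusted p = 0.0194), and its call ended without CTR 2 (adjusted p = 0.0538). Rif1, which brings PP1 to replication origins, fell (log2 fold change -0.31, SE 0.08, adjusted p = 0.019), and its call ended without CTR 1, CTR 2, SKO 1 or SKO 2 (adjusted p 0.0511 to 0.0587).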

How the data were processed

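Poly-A RNA from tail epidermis was sequenced as single 75-base reads. The authors deposited raw read counts per Ensembl gene, with no normalization. Per the submitters' processing notes, tools included cutadapt 1.7.1, STAR 2.4.1d, featureCounts 1.4.6 and edgeR 3.8.6, and the build GRCm38. The annotation release, strand setting and treatment of reads with several matches are not given in the sources used here, so overlapping and copied genes are uncertain. Symbols came from GENCODE M21 (46488 of 46983 identifiers matched).

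Counts were tested in edgeR 4.0.16 (R 4.3.3) by the quasi-likelihood test, two-sided, on all 8 libraries, with TMM factors, filterByExpr defaults and Benjamini-Hochberg adjustment. The script was tested on simulated data. Alternatives used limma 3.58.1, DESeq2 1.42.0, other scalings and filters, Xist as a further term, each library left out, and copies summed (added after seeing the data). Roles, motifs and sequences came from GENCODE and RefSeq tables and textbook knowledge.

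The members, gene lists, tests and alternatives were chosen with earlier results of these data known. Named were the catalytic genes, Ppp1r8, called members, the most abundant member per length of each role, and at most 4 called genes with the largest change from each other list. Further members and further genes of some lists were given for completeness. Krt85 and Tp53bp2 were listed but found no match under those symbols and are not analysed here. The list of myosin light chain regulators was also tested and is not reported here.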

Additional observations from a re-analysis of the deposited data

Results flagged for a closer look

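In 4 of 70 groups of 4 libraries (35 tested members in each genotype), 1 library stood apart from the other 3 by more than Dixon's 95% critical value. Chance alone gives this in about 1 in 20 groups. In SKO, Ppp1r1c was at 1.27 CPM in SKO 4 against 0.629 to 0.701 in the others. Ppp1r3e was at 8.10 CPM in SKO 4 against 4.25 to 4.51. Ppp1r9b was at 118.9 CPM in SKO 4 against 129.1 to 129.9. Ppp1r12c was at 31.4 CPM in SKO 3 against 36.7 to 37.5. For Ppp1r9b the library that stood apart was the one nearest to CTR, for Ppp1r1c and Ppp1r12c the one farthest from it. Without SKO 4, Ppp1r1c and Ppp1r9b were still called, and Ppp1r3e was called lower.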

How the results depend on the processing

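The number of higher members, 4, became 7 with upper-quartile factors, 7 in DESeq2 and 1 with Xist as a further term, and ranged from 3 to 7 when each library was left out. The number of lower members, 4, became 0 with the Xist term and ranged from 2 to 6 when each library was left out. Ppp1r12b kept its call in all 17 alternatives. Those of Ppp1r9b, Ppp1r13b and Ppp1r15a ended only with the Xist term, as did that of Ppp1r1c in the 16 alternatives in which it was tested (it had too few counts for the filter of 1 CPM in 4 libraries). Ppp1cc lost its call in 2, Ppp1r14a in 7 and Ppp1r36 in 8. The cause was not tested. Signs of differences that were not called also turned: leaving out each library, Ppp1r8 ranged from -0.21 to 0.048 (above 0 without SKO 2) and Ppp1cb from -0.011 to 0.038 (under 0 without CTR 1 or SKO 3). With the Xist term, the log2 fold changes of Ppp1ca (-0.18), Ppp1r16a (-0.069), Ppp1r15b (0.014), Ppp1r3b (0.45) and the called gene Atf4 (-0.15) had the opposite sign. Xist itself did not overlap between the groups, so the fit with the Xist term cannot separate Xist level from genotype. No paired analysis was possible because the labels give only mouse identifiers, with no shared replicate numbers or litters. Each CTR identifier lies near an SKO identifier, but no label says that neighbours belong together, and no fit with them as pairs was run. Depth limits Ppp1r1c, Ppp1r14a and Ppp1r36, which rest on 13 to 144 counts per group.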
